A study of Homo sapiens with 8 samples.

Results

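The proteasome subunit genes are described here in LNCaP cells, a human prostate adenocarcinoma line, in which METTL3 was depleted, with or without an added METTL3. The members were taken by name as every counted gene whose symbol is PSM, 1 letter from A to G and a number, and 48 of the 27140 genes in the table met this rule. Of these, 46 had enough counts to be tested. PSMA8, a testis-specific alpha subunit, had 0 counts in all 8 libraries, and PSMB11, a beta subunit of the thymus, had between 0 and 3.

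The proteasome degrades proteins that carry chains of ubiquitin. Its barrel-shaped core is built of rings of alpha subunits (PSMA genes), which gate the entry, and of beta subunits (PSMB genes), of which PSMB5, PSMB6 and PSMB7 cut the peptide chain. A regulatory particle caps the barrel: its base holds ATPases that unfold the substrate (PSMC genes) and large scaffold and ubiquitin-binding subunits (PSMD1, PSMD2 and PSMD4), and its lid (the other PSMD subunits) removes ubiquitin. Under interferon, cells replace the catalytic subunits with PSMB8, PSMB9 and PSMB10 to form the immunoproteasome, which favours peptides that bind class I MHC molecules. PSMG genes encode chaperones that assemble the core, PSMD5, PSMD9 and PSMD10 encode chaperones of the base, PSME genes encode alternative caps that activate the core, and PSMF1 encodes an inhibitor.

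METTL3 is the enzyme that writes N6-methyladenosine on messenger RNA, within a larger complex. Lentivirus was used to make 4 lines, each measured in 2 libraries and each kept under puromycin at 1 µg/ml. The control line carried a control hairpin with a vector, and the knockdown line a hairpin against METTL3 with a vector. The wild-type rescue line carried the METTL3 hairpin with a hairpin-resistant wild-type METTL3, and the mutant rescue line the same hairpin with a resistant, catalytically dead METTL3. All lines therefore share infection and drug selection, and the labels do not say whether a line is 1 clone or a pool. The design asks which transcripts depend on METTL3 and which of those depend on its catalytic activity, the latter by the comparison of the mutant with the wild-type rescue.

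PSMB10 and PSME2 belong to the interferon-induced forms of the proteasome, and PSMG1 and PSME3 had their lowest level in the mutant rescue. Promoter sequence is shown for these 4 members, which are named in the results below. Each runs 5′ to 3′ on the gene's strand from 250 bases before to 50 bases after the annotated start (RefSeq, GRCh38.p14), and capitals mark 1 motif match.
PSMB10: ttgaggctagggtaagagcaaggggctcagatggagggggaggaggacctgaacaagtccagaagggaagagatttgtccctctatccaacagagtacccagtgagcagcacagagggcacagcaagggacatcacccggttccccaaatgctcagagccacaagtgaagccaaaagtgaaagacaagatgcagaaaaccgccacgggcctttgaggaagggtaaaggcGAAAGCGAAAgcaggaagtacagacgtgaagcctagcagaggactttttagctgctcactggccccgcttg
PSME2: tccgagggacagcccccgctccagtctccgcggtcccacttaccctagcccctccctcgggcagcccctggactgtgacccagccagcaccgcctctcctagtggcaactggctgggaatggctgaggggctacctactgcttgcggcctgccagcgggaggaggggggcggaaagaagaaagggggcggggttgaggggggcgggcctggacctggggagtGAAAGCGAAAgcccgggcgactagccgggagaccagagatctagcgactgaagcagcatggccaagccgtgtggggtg
PSMG1: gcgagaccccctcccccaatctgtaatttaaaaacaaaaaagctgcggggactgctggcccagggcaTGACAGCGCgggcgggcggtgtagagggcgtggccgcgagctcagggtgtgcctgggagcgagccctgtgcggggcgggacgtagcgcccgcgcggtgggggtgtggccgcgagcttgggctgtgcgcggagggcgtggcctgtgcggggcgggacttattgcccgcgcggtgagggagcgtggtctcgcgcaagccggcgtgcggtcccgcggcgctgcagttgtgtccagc
PSME3: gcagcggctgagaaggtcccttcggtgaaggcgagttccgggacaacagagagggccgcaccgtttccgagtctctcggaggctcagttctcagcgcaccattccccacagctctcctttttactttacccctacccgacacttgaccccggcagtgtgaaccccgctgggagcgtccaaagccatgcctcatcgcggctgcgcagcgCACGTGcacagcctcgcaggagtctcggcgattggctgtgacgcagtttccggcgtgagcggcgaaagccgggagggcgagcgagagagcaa
PSMB10 lies at chr16:67936801-67937100 (minus strand) and PSME2 at chr14:24146561-24146860 (minus strand), and both hold the same GAAAGCGAAA, which begins 21 and 28 bases before the start. This is the reverse complement of TTTC, any 2 bases and TTTC again, the core of the interferon-stimulated response element. PSMG1 lies at chr21:39183402-39183701 (minus strand) and holds TGACAGCGC, a match to the antioxidant response element TGACNNNGC, the kind of site that NFE2L1 and NFE2L2 bind. PSME3 lies at chr17:42833147-42833446 (plus strand) and holds the E-box CACGTG. None of these 4 matches overlaps another motif searched, and a match is a description of the letters, not evidence of a bound site.

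Promoters of 42 of the 48 members were in the table; those of PSMA7, PSMB1, PSMB6, PSMB7, PSMD4 and PSMG3 were not analysed here. Both strands were searched. The antioxidant response element was in 13 of the 42 (31%), against 13.6% of 27305 promoters of the same length, and the interferon-stimulated response element was in 6 (14.3%), against 3.65%. Of the 42 promoters 27 belonged to core and regulatory genes, and of these 5 held the antioxidant and 2 the interferon-stimulated element. The CCAAT box was in 19 (45.2%, against 35.7%), the gamma-activated site TTCNNNGAA in 5 (11.9%, against 7.88%) and CACGTG in 3 (7.14%, against 7.43%). Among the 27 these were in 14, 4 and 1. The 6 members with the interferon-stimulated element were PSMA4, PSMB4, PSMB10, PSME1, PSME2 and PSMG4. Of the immunoproteasome genes only PSMB10 was among them, without PSMB8 and PSMB9, and members of other roles held it too.

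The libraries held 15200343 to 17893241 counts. METTL3 was at 68.4 and 68.5 CPM (counts per library total after TMM scaling) in the control line, 26.2 and 31.3 after knockdown, 309 and 325 with wild-type METTL3 and 333 and 334 with the mutant, so the knockdown and the added copies match the labels, while these counts cannot separate the wild-type from the mutant copy or either from the hairpin's target. Nothing in the labels tells whether paired libraries are separate cultures, and all tests measure only the spread between these libraries, which may be technical (biological coefficient of variation 1.40%). All 8 luminal prostate markers were present, with a summed level of 8902 to 8950 CPM in the control line, 7139 to 7214 after knockdown, 7372 to 7464 with wild-type METTL3 and 7285 to 7329 with the mutant. Of 6 white blood cell markers, PTPRC and CD3E had at most 1 count, and the sum was mostly HLA-DRA, at 3.97 to 4.49 CPM in the control, 6.15 to 6.16 in the knockdown and 6.55 to 7.18 in the 2 rescues. COL1A2 of 4 fibroblast markers was at 0 throughout, and their sum, mostly COL1A1, was 78.3 to 80.1 CPM in the control, 81.6 to 90.3 in the knockdown and 94.7 to 104.1 in the 2 rescues. Of 3 basal markers KRT5 had at most 1 count and TP63 had 1 to 12. Their sum, mostly KRT14, was 3.21 to 3.60 CPM in the control and 2.73 to 4.01 in the knockdown. It was 2.965 to 3.92 CPM with wild-type METTL3 and 2.64 to 2.65 with the mutant. Whether these marker levels take part in the results was not tested.

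Levels between genes were compared as TPM, which divides by gene length. In the control the 14 core subunits ranged from 73.9 ± 2.87 TPM for PSMB2 to 619.3 ± 1.56 for PSMB4 (SD, n = 2), with a median of 255.4. The regulatory particle subunits lay lower, from 53.5 ± 1.85 TPM for PSMD12 to 348.7 ± 13.9 for PSMD8, with a median of 148.2 over 16 genes. PSMC1 was left out of that range, because 82.8% of the 50-base words of its transcript also occur in other annotated genes, its pseudogenes first among them, and its level of 1.69 to 2.83 CPM is uncertain. The activators PSME1 (376.7 ± 4.75 TPM) and PSME2 (301.2 ± 9.63) stood within the range of the core, above PSME3 (108.9 ± 0.0289) and PSME4 (53.6 ± 0.299). Core chaperone genes ranged from 31.6 TPM for PSMG4 to 99.0 for PSMG2, and PSMB10 stood at 60.4 ± 2.997. No TPM is given for PSMB8 and PSMB9. Their deposited gene lengths are 4.73 and 2.73 times the exon length of a later annotation, against at most 1.58 times for any other member.

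**Figure D1:**
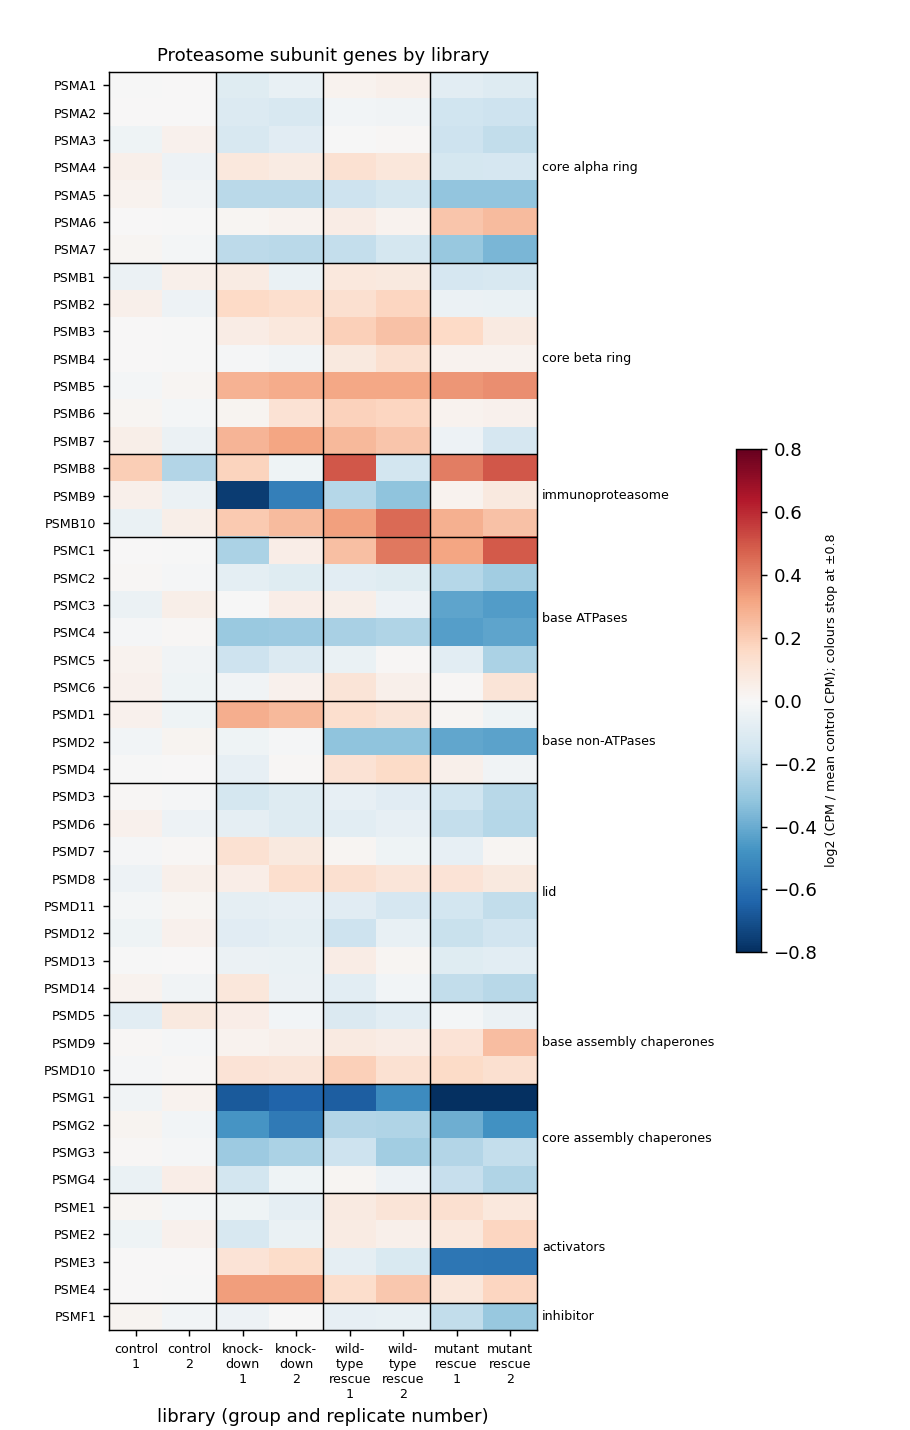
Levels of the 46 tested members (rows, by role) in the 8 libraries (columns), as log2 of CPM over the mean control CPM; blue is below and red above the control, and colours stop at ±0.8. The mutant rescue columns are mostly blue over the core and regulatory rows, and PSMG1 is blue in all 6 libraries that carry the METTL3 hairpin.

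The mutant rescue held less messenger RNA of most core and regulatory subunits than the wild-type rescue, by small amounts. Of the 46 tested members 27 fell and 2 rose (edgeR, adjusted p under 0.05), where 20.3% of all 15289 tested genes fell and 21.0% rose. The fall covered 12 of 14 core genes and 11 of 17 regulatory genes, 1 core gene rose, and none of the 3 immunoproteasome genes was called (PSMB8 0.26, SE 0.24, PSMB9 0.33, SE 0.15, and PSMB10 -0.14, SE 0.07). The median log2 difference was -0.15 over the core genes and -0.12 over the regulatory genes, beside 0.00 over all genes tested. Among the members called in this comparison the median change was 1.12-fold. In bulk RNA, fewer cells that express a gene and less RNA per cell cannot be told apart. Without mutant rescue replicate 2 the number of members that fell was 17 and that of regulatory genes 4, DESeq2 called 21 lower and 1 higher, and 4 fell by at least 0.25 on the log2 scale. In 18 of the 29 called members the call held under all alternatives except that minimum size.

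**Figure D2:**
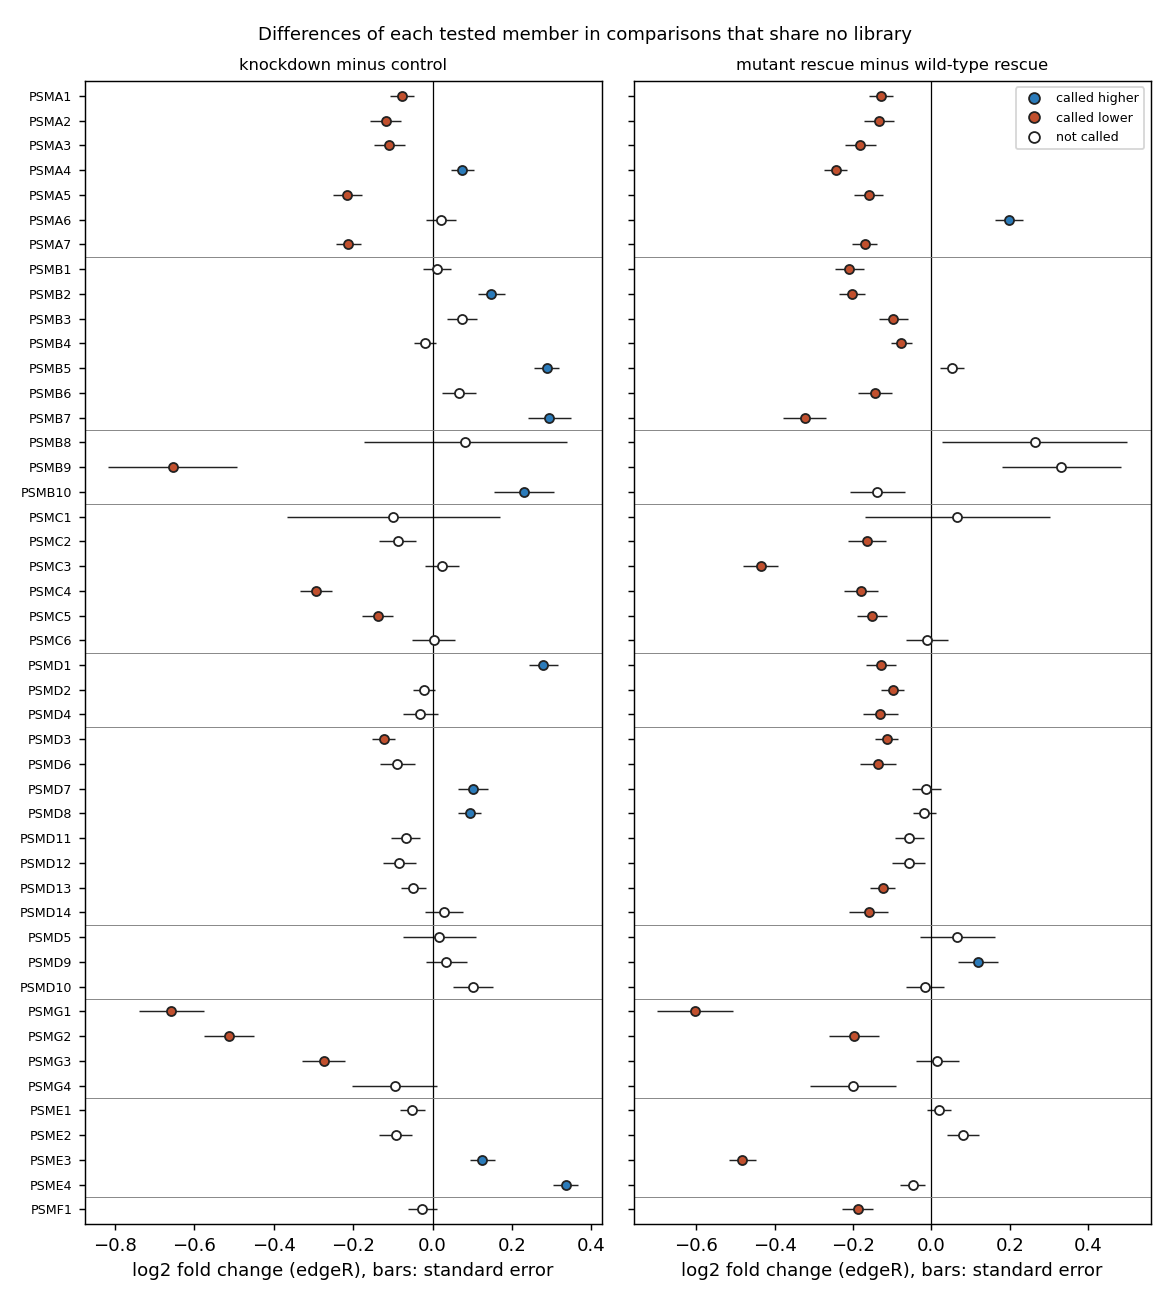
Log2 fold change (edgeR, points) with its standard error (bars) of each tested member for the knockdown against the control (left) and the mutant against the wild-type rescue (right), which share no library. On the left 10 members are called higher and 12 lower, and on the right 2 are higher and 27 lower.

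Within the core, 6 of the 7 alpha genes and 6 of the 7 beta genes fell from the wild-type to the mutant rescue. PSMB7, the subunit with trypsin-like activity, stood at 52.5 and 51.2 CPM in the wild-type rescue and at 42.7 and 40.1 in the mutant rescue (log2 fold change -0.32, SE 0.05, edgeR adjusted p = 2.28e-07). PSMA4 went from 205.3 ± 3.12 to 173.2 ± 0.161 CPM (SD, n = 2; -0.24, SE 0.03). The other falls in the core were smaller than 0.22, down to PSMB4 at -0.08, whose call and that of PSMB3 ended without mutant rescue replicate 2 (edgeR adjusted p = 0.0711 and 0.386). PSMB6, with caspase-like activity, was at 83.5 and 82.0 CPM in the control line, 83.9 and 89.5 after knockdown, 93.8 and 93.1 with wild-type METTL3 and 84.5 and 84.6 with the mutant. Its fall between the rescues was 0.14 (SE 0.04), and the wild-type rescue lay above the other lines. PSMB5, with chymotrypsin-like activity, was not called (0.05, SE 0.03). PSMA6 was the core gene that rose, from 115 and 112.4 CPM to 129 and 131.7 (0.20, SE 0.04, edgeR adjusted p = 1.65e-06), with no overlap between the groups. Of the 50-base words of the PSMA6 transcript, 85.6% also occur in other annotated genes (AL121594.1 and PSMA6 pseudogenes), and how the authors counted such reads is not given in the sources used here.

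In the regulatory particle the fall was largest in PSMC3, an ATPase of the base. It was at 96.7 and 90.7 CPM in the wild-type rescue, at 90.5 to 96.9 in the 4 control and knockdown libraries, and at 69.7 and 68.7 in the mutant rescue. Both mutant rescue libraries lay below the other 6 (-0.44 against the wild-type rescue, SE 0.04, edgeR adjusted p = 2.53e-16). Of the 6 base ATPases 4 fell, as did the 3 other base subunits (PSMD1, PSMD2 and PSMD4) and 4 of 8 lid subunits (PSMD3, PSMD6, PSMD13 and PSMD14; 2 with DESeq2 or without wild-type rescue replicate 2). Outside PSMC3 the falls in the particle ranged from -0.10 for PSMD2 to -0.18 for PSMC4. Of these 11 calls, those of PSMC2, PSMC5, PSMD1, PSMD3, PSMD4, PSMD6 and PSMD14 ended without mutant rescue replicate 2. PSMF1, the inhibitor of the core, also fell (-0.19, SE 0.04). PSMD9, a chaperone of the base, rose (0.12, SE 0.05, edgeR adjusted p = 0.0475), but with DESeq2 the adjusted p was 0.223, and the call also ended without the filter and with only the 2 lines compared.

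Summed over subunits and corrected for length, core transcripts were 3864 ± 6.79 TPM in the control line, 4011 ± 23.4 after knockdown, 4096 ± 3.26 with wild-type METTL3 and 3707 ± 22.7 with the mutant (SD, n = 2). Regulatory transcripts were 2440 ± 12.8, 2485 ± 10.1, 2404 ± 28.8 and 2176 ± 23.8 TPM in the same order. Both sums were lowest in the mutant rescue, and neither of its libraries overlapped those of another line. The highest and lowest lines differed by 0.14 on the log2 scale for the core and 0.19 for the regulatory particle, against SDs within lines of 0.00626 and 0.0126. In TMM-scaled CPM the mutant rescue was again lowest in both sums, but the regulatory sum was higher in the control than in the knockdown. The core sums of control and knockdown lay close together in CPM, with the knockdown mean again the higher. The size of their difference therefore depends on the scaling.

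The core assembly chaperones held the largest single change. PSMG1, which pairs with PSMG2 to arrange the alpha ring, stood at 27.1 and 28.3 CPM in the control line, 17.4 and 17.7 after knockdown, 17.5 and 19.6 with wild-type METTL3 and 11.7 and 12.8 with the mutant. It was thus lower in every library with the METTL3 hairpin, and lowest where the introduced METTL3 was catalytically dead. The falls were 0.66 on knockdown (SE 0.08, edgeR adjusted p = 2.63e-12), 0.60 from the wild-type to the mutant rescue (SE 0.10, adjusted p = 5.53e-08) and 1.18 from the control to the mutant rescue (SE 0.09, adjusted p = 2.03e-25) on the log2 scale. PSMG1 was the only member to pass a log2 fold change of 1 in any comparison. Between the wild-type rescue and the knockdown it was not called (0.09, SE 0.09).

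PSMG2 fell on knockdown from 44.7 and 43.5 to 31.9 and 29.9 CPM (-0.51, SE 0.06) and rose to 37.5 and 37.3 with wild-type METTL3 (0.27, SE 0.06, edgeR adjusted p = 3.23e-04). In the mutant rescue, at 33.7 and 31.6 CPM, it was not called against the knockdown (0.08, SE 0.07). PSMG2 was the core chaperone called in both the loss and the return of wild-type METTL3. It remained below the control in the wild-type rescue (-0.24, SE 0.06). Its fall from the wild-type to the mutant rescue (-0.20, SE 0.06) was not called without mutant rescue replicate 2 (edgeR adjusted p = 0.136), nor by DESeq2 (0.0888). The exons of PSMG2 overlap those of CEP76 and SPIRE1 on the other strand (468 and 92 bases). Such overlaps, of any size, were found in 19 of the 46 tested members, and whether the counting used strand is not given in the sources used here. PSMG3 fell on knockdown (-0.27, SE 0.05) and was at 44.7 ± 2.42 and 45.0 ± 0.925 CPM in the wild-type and mutant rescues, against 43.2 ± 0.878 in the knockdown. PSMG4, the partner of PSMG3, was called in none of the 6 comparisons. POMP, the core maturation factor outside the PSM names, stood at 49.9 ± 1.80, 54.2 ± 0.305, 58.7 ± 4.40 and 51.1 ± 2.26 CPM in the control, knockdown, wild-type rescue and mutant rescue.

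**Figure D3:**
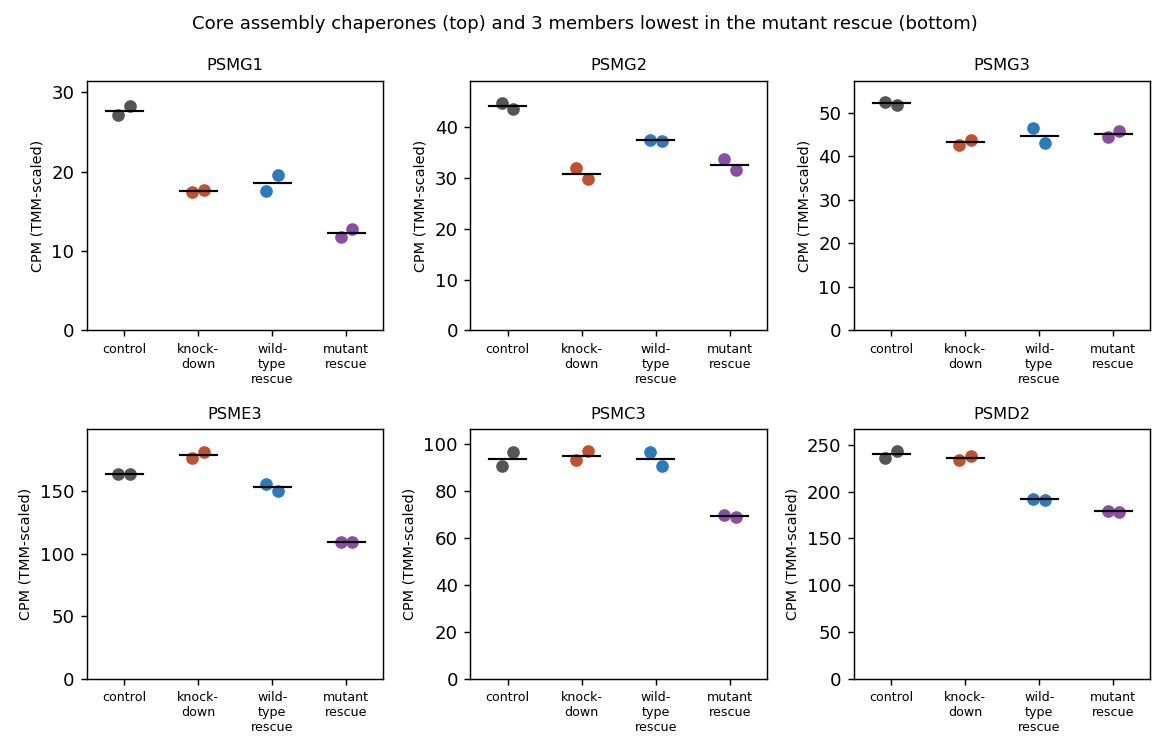
CPM in each library (points, 2 per line) and line means (bars) of the chaperone genes PSMG1, PSMG2 and PSMG3 and of PSME3, PSMC3 and PSMD2. PSMG1 goes from 27.1 and 28.3 in the control to 11.7 and 12.8 in the mutant rescue, with the other 2 lines between, and the mutant rescue libraries of PSME3 and PSMC3 lie below those of the other 3 lines.

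The activators split. PSME3, which forms the nuclear activator cap of the core, stood at 163.5 CPM in both control libraries, 176 and 180.8 after knockdown, 155.5 and 150.2 with wild-type METTL3 and 109.5 and 109.2 with the mutant. It rose a little on knockdown (0.12, SE 0.03), fell with wild-type METTL3 (-0.22, SE 0.03) and was lowest in the mutant rescue (-0.71 against the knockdown, SE 0.03, edgeR adjusted p = 3.74e-45, and -0.48 against the wild-type rescue, SE 0.03, adjusted p = 2.23e-27). The exons of PSME3 overlap those of BECN1 on the other strand (300 bases). PSME4, an activator of nuclear proteasomes in DNA repair and spermatogenesis, rose on knockdown from 146.8 and 145.6 to 184.7 and 184.1 CPM (0.33, SE 0.03). It was lower in the mutant rescue than in the knockdown (-0.20, SE 0.03, or -0.10 with a trend of fold change on gene length removed). With wild-type METTL3 it was also lower (-0.15, SE 0.03), but that call ended with the length trend removed (-0.06, edgeR adjusted p = 0.177). The interferon-induced pair PSME1 and PSME2 exceeded its knockdown level with the mutant (0.16, SE 0.03, and 0.22, SE 0.04) and with wild-type METTL3 (0.14 each, SE 0.03 and 0.04). With the length trend removed the mutant values were 0.07 and 0.11, and neither gene was called in the wild-type rescue (edgeR adjusted p = 0.34 and 0.711). Between the rescues neither was called (0.02, SE 0.03, and 0.08, SE 0.04).

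Depletion of METTL3 changed members in both directions. Against the control 10 of 46 rose and 12 fell, beside 22.9% and 25.1% of all tested genes, so that the shares of members called (21.7% and 26.1%) lay near the background. Within the core 5 of 7 alpha genes fell and 1 rose, while 3 of 7 beta genes rose and none fell (0 also with DESeq2 and at an unadjusted edgeR p under 0.05). Among the alpha genes PSMA7 went from 184.6 and 180.8 to 158 and 157.5 CPM (-0.21, SE 0.03), and PSMA5 from 133.8 and 128.7 to 112.9 and 113.2 (-0.22, SE 0.04). With the length trend removed, 2 alpha genes were lower and 3 beta genes higher (beside 24.2% and 23.3% of all genes). DESeq2 also called 2 alpha genes lower, and without control replicate 2 or knockdown replicate 1 they were 3. PSMB5 rose from 146.1 and 149.5 to 179.4 and 181.4 CPM (0.29, SE 0.03, edgeR adjusted p = 2.52e-15), and PSMB7 from 45.4 and 42.5 to 53.2 and 54.6 (0.29, SE 0.05). In the regulatory particle 3 genes rose (1 without control replicate 1), among them PSMD1 (0.28, SE 0.04), and 3 fell, among them PSMC4 (-0.29, SE 0.04).

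The knockdown against the control and the mutant against the wild-type rescue share no library. Of the 12 members that fell on knockdown 10 (83.3%) also fell from the wild-type to the mutant rescue, which is 37.0% of the 27 that fell there. These were PSMA1, PSMA2, PSMA3, PSMA5, PSMA7, PSMC4, PSMC5, PSMD3, PSMG1 and PSMG2. With DESeq2 the number was 5 (PSMA5, PSMA7, PSMC4, PSMD3 and PSMG1), since the knockdown calls of PSMA1, PSMA2, PSMA3 and PSMC5 (DESeq2 adjusted p = 0.223, 0.0953, 0.146 and 0.0635) and the call of PSMG2 between the rescues ended. With the length trend removed 7 of the 10 were still called in both, without PSMA1, PSMA2 and PSMA3. Over all genes the shares were 23.1% of 3831 and 28.6% of 3101. Of all 46 tested members, whatever their call on knockdown, 58.7% fell between the rescues. Whether the falls in the 2 comparisons go together beyond that was not tested. Another 5 members, of the 10 that rose on knockdown (50%), fell from the wild-type to the mutant rescue: PSMA4, PSMB2, PSMB7, PSMD1 and PSME3. Over all genes this share was 27.5% of 3506. No member was called higher in the mutant than in the wild-type rescue and also called in the knockdown. That rests on only 2 members called higher between the rescues. Of the 3206 genes called higher there, 801 also rose and 1044 fell on knockdown.

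Adding wild-type METTL3 to the knockdown moved few members by much. Of 46 members 11 rose and 5 fell, beside 10.8% and 13.2% of all genes. With the length trend removed 2 rose and 6 fell (beside 7.90% and 9.26%), and without knockdown replicate 1 or wild-type rescue replicate 2, 5 or 7 rose, as did 5 by DESeq2. Shorter genes were higher in this comparison (Spearman rho -0.35 across 15289 genes, which are not independent replicates). Members have a median length of 1596.5 bases, against 3194 for all genes tested. The calls of PSMD1, PSMD2, PSME3 and PSMG2 held under all alternatives except the minimum size of change. PSMD2, a large scaffold of the base, fell from 234.4 and 238.3 to 192.2 and 191.5 CPM (-0.30, SE 0.03, edgeR adjusted p = 1.40e-18), and it had not been called between knockdown and control (-0.02, SE 0.03). It was also low in the mutant rescue, at 179.6 and 178.6 CPM. PSMD4 was higher (0.17, SE 0.04), but with the length trend removed it was not called (edgeR adjusted p = 0.212).

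In the mutant rescue against the knockdown 20 members fell and 6 rose, beside 25.8% and 25.9% of all genes. Of 17 regulatory genes 10 fell and none rose (1 at an unadjusted edgeR p under 0.05, 0 with DESeq2), and of 14 core genes 6 fell and 2 rose (9 fell with the length trend removed, beside 25.2% of all genes, and 1 rose). DESeq2 called 2 lid genes lower, against 5. PSME3, PSMG1 (-0.52, SE 0.10), PSMC3 (-0.46, SE 0.04), PSMD2 (-0.40, SE 0.03) and PSMB7 (-0.38, SE 0.05) fell most. PSMB9 rose most (0.71, SE 0.16), followed by PSME2 and PSMA6 (0.22 each, SE 0.04).

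Each rescue was also compared with the control. In the wild-type rescue 14 members rose and 11 fell, beside 23.8% and 25.5% of all genes, and 6 of the 7 beta genes were among those that rose (4 with the length trend removed, beside 24.1% of all genes), led by PSMB5 (0.31, SE 0.03) and PSMB7 (0.24, SE 0.05). DESeq2 called 7 members lower there. In the mutant rescue 10 rose and 23 fell, beside 29.1% and 29.7%, with 2 beta genes higher and 1 lower, and without control replicate 1, 6 rose. Regulatory genes fell in 5 of 17 with wild-type METTL3 (2 with DESeq2 or without control replicate 2) and in 11 of 17 with the mutant. PSMC4 was at 104.1 and 105.9 CPM in the control and at 77.5 and 78.4 in the mutant rescue (-0.43, SE 0.04). PSMB5 stayed above the control in both rescues (183.4 and 183, and 189 and 190.9 CPM). These comparisons share the control libraries, and the difference between the rescues is tested above. By a test of any difference among the 4 lines, 41 of the 46 members were called, beside 73.8% of all genes. They included the 14 core genes, 15 of 17 regulatory genes and 2 of 3 immunoproteasome genes.

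The immunoproteasome genes did not move as a unit. PSMB8 was low in all lines, between 1.83 and 3.03 CPM, and was called in none of the 6 comparisons. PSMB9 was at 6.70 and 6.30 CPM in the control line, 3.84 and 4.45 after knockdown, 5.54 and 5.19 with wild-type METTL3 and 6.62 and 6.86 with the mutant. It fell on knockdown (-0.65, SE 0.16, edgeR adjusted p = 3.29e-04) and was higher in the mutant rescue than in the knockdown (0.71, SE 0.16, adjusted p = 8.12e-05). Between the mutant rescue and the control it was not called (0.05, SE 0.15). The rise with wild-type METTL3 was not called (0.38, SE 0.17, adjusted p = 0.0914), nor was the difference between the rescues (0.33, SE 0.15, adjusted p = 0.0708). PSMB10 took the other direction on knockdown, from 22.6 and 24.2 to 27.0 and 27.8 CPM (0.23, SE 0.08, adjusted p = 0.00725). That call ended with DESeq2 (adjusted p = 0.0685) and without control replicate 1 (0.122) or knockdown replicate 2 (0.0514). It stood at 29.4 and 32.0 CPM in the wild-type rescue (0.40 over the control, SE 0.07, adjusted p = 1.29e-06) and at 28.5 and 27.5 in the mutant rescue (0.26, SE 0.08, adjusted p = 0.00198, or 0.0561 without control replicate 1).

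The exons of PSMB8 overlap those of PSMB8-AS1 and PSMB9 on the other strand, those of PSMB9 overlap PSMB8-AS1 on the same strand, and 38.9% of the 50-base words of PSMB10 also lie in AC040162.1, so these counts are less certain than those of PSMB5 or PSMB7. As log2 of the CPM ratio within each library, PSMB9 to PSMB6 went from -3.67 ± 0.0439 in the control to -4.39 ± 0.0853 after knockdown, -4.12 ± 0.0590 with wild-type METTL3 and -3.65 ± 0.0358 with the mutant (SD, n = 2). PSMB10 to PSMB7 was -0.91 ± 0.137, -0.97 ± 0.00162, -0.76 ± 0.113 and -0.57 ± 0.0261 in that order. Between the rescues PSMB7 fell, and PSMB10 was not called (-0.14, SE 0.07). The ratio of the summed TPM of the 3 immunoproteasome genes to that of the 3 constitutive genes, in which PSMB10 weighs most, ranged between lines by 0.13 on the log2 scale, against an SD within lines of 0.06. The TPM of PSMB8 and PSMB9 in this sum rest on the deposited lengths questioned above, which lower their weight. In TPM the mean ratio was -3.31 in the control and the knockdown, -3.18 with wild-type METTL3 and -3.22 with the mutant. In CPM, without lengths, the range was 0.18, but between other lines: the knockdown was lowest and the mutant rescue highest. Without PSMB10 the range was 0.71, with only PSMB8 and PSMB9 set against the 3 constitutive genes. PSMB5 and PSMB7 rose on knockdown, so this range does not come from PSMB8 and PSMB9 alone.

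**Figure D4:**
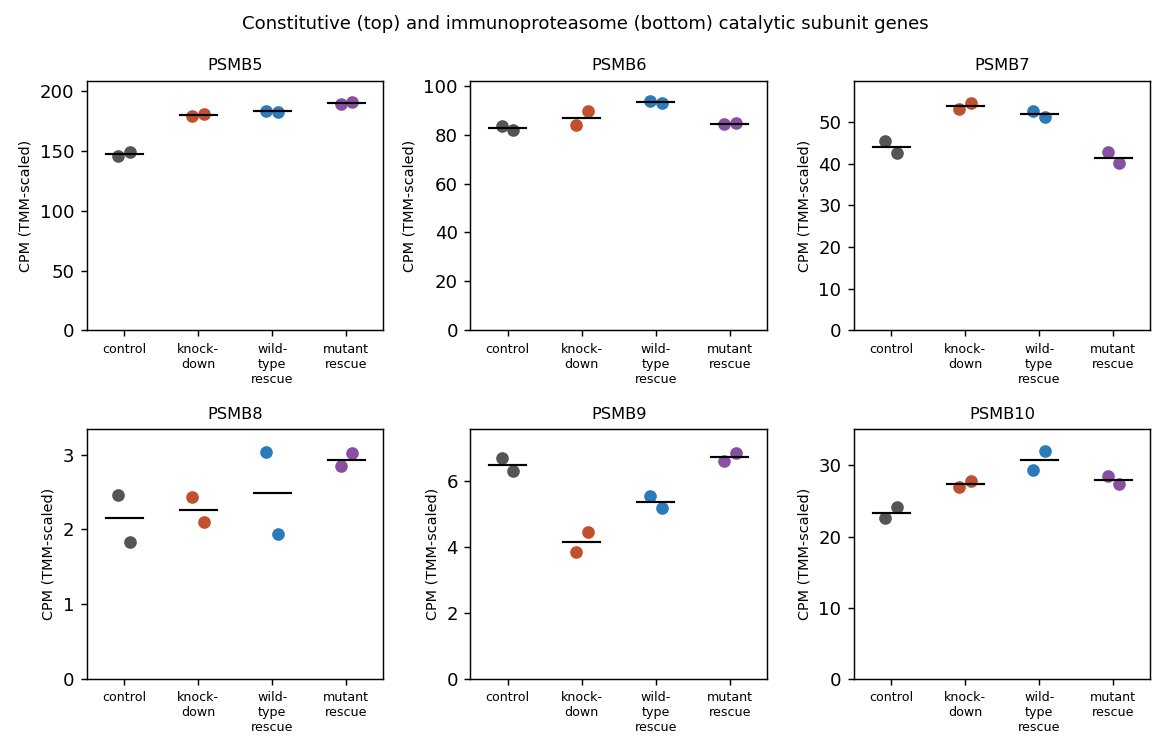
CPM in each library (points, 2 per line) and line means (bars) of the constitutive catalytic genes PSMB5, PSMB6 and PSMB7 (top) and of the immunoproteasome genes PSMB8, PSMB9 and PSMB10 (bottom). PSMB5 is higher in the other 3 lines than in the control, PSMB7 is high in the knockdown and the wild-type rescue, and PSMB9 is lowest in the knockdown at 3.84 and 4.45.

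Genes around the immunoproteasome were read from 2 lists. Of 11 genes of interferon signalling 1 fell in each comparison. Against the control 6 rose on knockdown, 8 with wild-type METTL3 and 7 with the mutant, beside 22.9%, 23.8% and 29.1% of all genes. Against the knockdown 4 rose with wild-type METTL3 (beside 10.8%) and 5 with the mutant (beside 25.9%), and 5 rose from the wild-type to the mutant rescue (beside 21.0%). The 4 were 0 with DESeq2 (2 at an unadjusted p under 0.05) and 0 without knockdown replicate 1. The 5 between the rescues were 3 with DESeq2 and 3 without mutant rescue replicate 2. IRF1, a transcription factor that induces immunoproteasome genes, was at 26.6 and 25.01 CPM in the control line, 31.0 and 31.1 after knockdown, 33.8 and 36.4 with wild-type METTL3 and 57.8 and 52.6 with the mutant (0.65 between the rescues, SE 0.06, edgeR adjusted p = 9.92e-20). Of 14 genes of antigen processing and class I presentation 9 rose and 0 fell from the wild-type to the mutant rescue, beside 21.0% and 20.3% of all genes (2 were lower at an unadjusted edgeR p under 0.05, 0 fell with DESeq2 and 2 with the length trend removed). As many rose from the knockdown to the wild-type rescue (9, with 1 lower, beside 10.8% and 13.2%), and 6 rose and 4 fell on knockdown. TAP1, which carries peptides into the endoplasmic reticulum and lies beside PSMB9, went from 71.5 and 68.7 to 86.2 and 85.0 CPM (0.29, SE 0.05). B2M, the light chain of class I molecules, fell on knockdown (-0.24, SE 0.03) and rose between the rescues (0.23, SE 0.02). HLA-F (0.91, SE 0.09) and ERAP2, which trims peptides (0.89, SE 0.12), were the list's largest rises from control to mutant rescue, and CANX, a lectin chaperone, the largest fall (-0.35, SE 0.02). HLA and TAP genes have deposited lengths 2.62 to 7.70 times the later annotation, and no per-length level is given for them.

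**Figure D5:**
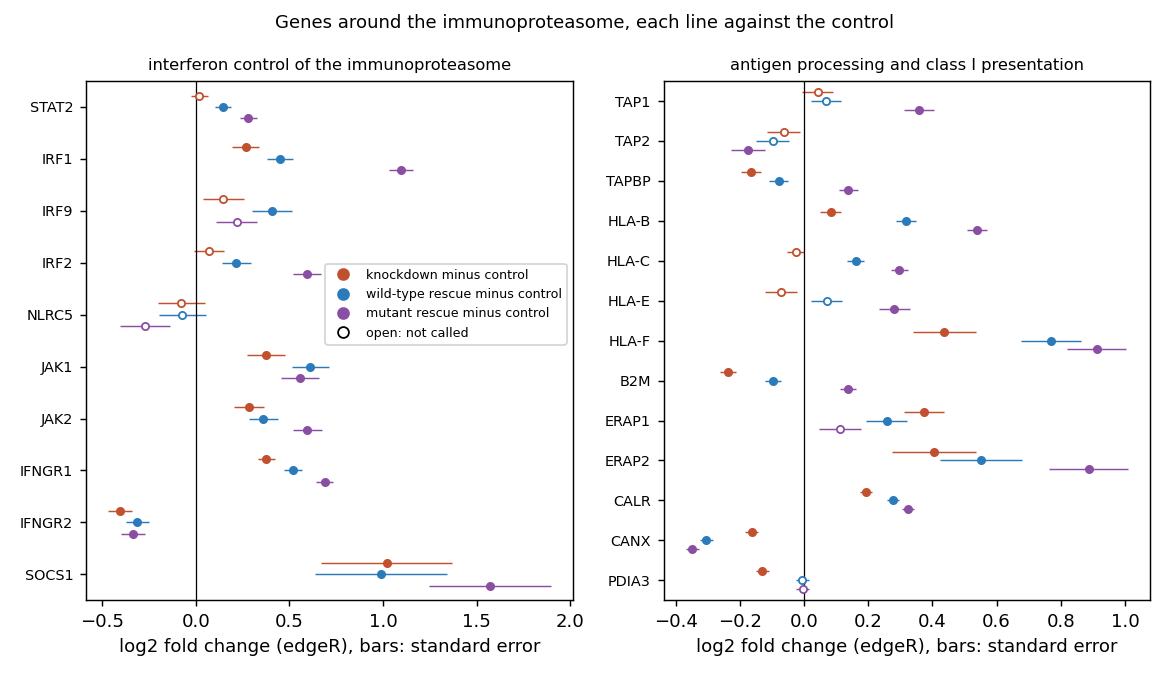
Log2 fold change over the control (edgeR, points) with its standard error (bars) for reported genes of interferon signalling (left) and of class I presentation (right) after knockdown and in both rescues; open points were not called. IRF1 lies farther right in the mutant rescue than in the other 2 lines, as does HLA-B.

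Other proteasome and ubiquitin genes moved in both directions between the rescues. Of all tested genes 21.0% rose and 20.3% fell in this comparison. Of 11 further subunits and assembly factors 2 rose and 5 fell. UBE3C, a ubiquitin ligase on the proteasome, went from 246.9 and 247.7 to 202.5 and 203.5 CPM (-0.28, SE 0.03), and AKIRIN2, which brings proteasomes into the nucleus, from 13.5 and 12.8 to 19.0 and 16.7 (0.44, SE 0.10). POMP also fell (-0.19, SE 0.05, edgeR adjusted p = 0.00107), but not without wild-type rescue replicate 1 (0.129). KIAA0368, the scaffold ECM29, was lower in each hairpin line, at 264.7 ± 3.86 CPM in the control and 235.7 ± 2.85, 198.0 ± 2.26 and 177.3 ± 1.16 in the knockdown, wild-type and mutant rescues. Among 12 genes that control proteasome transcription 5 rose and 2 fell between the rescues. MAFF and MAFG, small partners of NFE2L1, rose (0.59, SE 0.12, and 0.38, SE 0.05). NFE2L1, which drives proteasome genes when proteasome activity falls short, was at 546.9 ± 0.353 CPM in the control line, 528.2 ± 2.08 after knockdown, 471.0 ± 14.4 with wild-type METTL3 and 547.2 ± 12.3 with the mutant (0.21 between the rescues, SE 0.02). Of 13 tested genes of ubiquitin supply and shuttling 4 rose and 3 fell, with UBB, a polyubiquitin gene, falling (-0.20, SE 0.02).

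Between the rescues, 6 of the 13 tested members with an antioxidant response element in the promoter fell, against 16 of 27 without it. With a CCAAT box 13 of 18 fell, against 9 of 22 without it, and with a gamma-activated site 4 of 4 fell, against 18 of 36. With the interferon-stimulated element 2 of 6 fell, against 20 of 34 without it, and with CACGTG 2 of 3, against 20 of 37. Over all tested genes 20.3% fell. These counts are descriptions of promoters present in the table, and no difference between them was tested.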

How the data were processed

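RNA was measured in 8 LNCaP libraries, 4 lines of 2. The genome build was hg19 and the tools CASAVA, STAR 2.5.2b, featureCounts and DESeq2, per the submitters' processing notes; their parameters, and whether counting used strand, are not given in the sources used here. The authors deposited raw counts per gene and, as a column of other kind, gene lengths.

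Counts were tested with edgeR 4.0.16 in R 4.3.3 (quasi-likelihood, robust, 1 mean per line, all 8 libraries, TMM). The filter filterByExpr (minimum count 10, minimum total 15) left 15289 of 27140 genes, and p-values were Benjamini-Hochberg adjusted over all of them. CPM were computed from counts and TMM-scaled totals, and TPM from counts and deposited lengths. Paired libraries differed by more than sampling noise (chi-square per degree of freedom 1.21 to 1.35). A gene was called at an adjusted p under 0.05. SE is the absolute log2 fold change over the square root of F. No molecular identifiers are named, so counts may hold copies of 1 molecule. Named members are the catalytic subunits and, per comparison, up to 3 largest rises and falls among called members with at least 5 CPM and no overlap, and up to 2 each way per pathway list. Some genes are named outside this rule to complete a class or a pair and were chosen after their values were seen. The members, lists and tests were chosen with earlier results of these data known, so no p is given for sums over members. At 2 libraries against 2 an exact test cannot go below 0.333. Alternatives were DESeq2 1.42.0 (size factors, Wald test), no filter, a replicate block, a lowess length trend (span 0.3) removed, only the lines compared, each library left out, and a minimum absolute log2 fold change of 0.25. Methods were tested on simulated data. Shared 50-base words and exon lengths came from GENCODE, promoters from RefSeq. Some genes of the lists are not reported here.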

Additional observations from a re-analysis of the deposited data

How the results depend on the processing

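A minimum absolute log2 fold change of 0.25 left few members: 4 higher and 5 lower for knockdown against control, 1 and 1 for wild-type rescue against knockdown, 1 and 6 for mutant rescue against knockdown, 0 and 4 for mutant against wild-type rescue, 2 and 2 for wild-type rescue against control, and 2 and 10 for mutant rescue against control. Members higher in the wild-type rescue than in the knockdown were 2 with the length trend removed, 5 with DESeq2 and 5 to 11 with single libraries left out. Their split between higher and lower turned from 11 and 5 to 2 and 6 with that trend removed, and PSMB6 in that comparison reversed to -0.001891 (edgeR adjusted p = 0.983). Between the rescues 1 member was higher without the filter, with DESeq2 or with only the lines compared, and with single libraries left out 1 to 3 were higher and 17 to 27 lower. In the wild-type rescue against the control DESeq2 called 7 lower. In the mutant rescue against the control 6 to 10 were higher with single libraries left out.

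The range between lines of the immunoproteasome ratio was 0.211 (log2) with the length trend removed, 0.71 without PSMB10 and 0.0924 to 0.192 with single libraries left out. That of the core sum was 0.12 in CPM and 0.12 with the trend removed, and that of the regulatory sum 0.16 and 0.18. In each case the cause was not tested. The other counts over all members moved by at most 1.5 times. Recounted after seeing the data, members lower on knockdown and also lower in the mutant than in the wild-type rescue were 5 with DESeq2, 1 at the minimum size and 7 to 10 with single libraries left out, against 10, and those higher on knockdown and lower there were 1 at the minimum size and 4 to 5 with single libraries left out, against 5. Of 92 counts for single roles, 45 moved by more than 1.5 times under at least 1 alternative other than the minimum size, as did 17 of 59 counts for pathway lists. Among the values of named members under the alternatives, 557 kept their direction and call and 30 lost the call. The replicate block gave the same counts (2 higher and 27 lower between the rescues). Replicate numbers share nothing stated in the labels, and deviations of same-numbered libraries correlated between -0.0424 and 0.0250, so the numbers do not pair the libraries. Depth limits PSMB8 and PSMC1, at about 2 to 3 CPM.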
